A study of Homo sapiens with 8 samples.

Results

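The m6A peaks of chromosomes 14, 17 and 20 were examined in HepG2, a human liver cancer cell line that is known to carry extra copies of these chromosomes. All peaks listed on the 3 chromosomes were taken and merged across samples into regions where they overlapped by at least 1 base, which gave 1529 of the 12221 regions of the genome (12.5%). The cells were transfected with control siRNA (siControl) or with siRNA against METTL3 (siMETTL3) and harvested 48 h later, with 2 replicates per group and with no other allele or agent named for either group. In m6A-seq, an antibody against m6A enriches marked fragments of polyadenylated RNA, and stretches where these fragments pile up above the background are called as peaks. The labels do not say whether the replicates were separate cultures, so the p-values measure the spread between these samples, which may be technical. The lists held 873 and 997 peaks on the 3 chromosomes with siControl (replicates 1 and 2) and 924 and 1048 with siMETTL3 (replicates 1 and 2). They were between 12.2% and 12.9% of the peaks of a sample.

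METTL3 is the catalytic subunit of the complex that writes m6A on nuclear RNA, and m6A is read by YTH domain proteins that act on splicing, translation and decay of the marked RNA. Extra copies of a chromosome raise the template for transcription, so the amount of RNA from its genes can rise with them, while m6A is set on each RNA molecule. An m6A peak is therefore described by at least 2 values. The number of tags, which are sequenced fragments of the pulled-down RNA, depends on the amount of RNA and on its methylation, and fold enrichment is the excess over the background of the same sample. HepG2 is also known to carry extra copies of chromosomes 2, 6 and 16, which stand among the other 19 autosomes here. Copy number was not measured in these samples, and neither it nor the number of genes on a chromosome was used.

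The 4 samples had 6888 to 8577 peaks in all. Library depth is unknown here, since tags were counted over each sample's own peaks. Peaks on the 3 chromosomes held between 269114 and 355305 tags in a sample and covered between 4.54 and 5.22 kb per Mb. Of these peaks, 24 in siControl replicate 1 (2.75%) and 26 in siControl replicate 2 (2.61%) carried an FDR of 5% or less. None (0) did in either siMETTL3 sample. On the other autosomes 174, 255, 6 and 6 peaks did (2.98%, 3.67%, 0.099% and 0.082%), so the FDR differed in the same way there. The share of peaks on the 3 chromosomes with a score of at least 100 was 54.3%, 61.2%, 56.4% and 53.1% in the same order. Between 33.8% and 44.5% of the peaks on the 3 chromosomes had an FDR of at most 50%. Positions are given on the build hg19, and the regions carry no gene names because no gene annotation of that build was used here.

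The first question was whether these chromosomes carry more m6A peaks for their length. There were 3.47 and 3.96 peaks per Mb on them with siControl (replicates 1 and 2) and 3.67 and 4.17 with siMETTL3 (replicates 1 and 2). The other autosomes had 2.22, 2.64, 2.30 and 2.77 peaks per Mb in the same order. The density was thus 1.54 times that of the other autosomes (mean log2 ratio 0.62 ± 0.045, SD, n = 4) and higher in 4 of 4 samples (exact two-sided sign-flip test, p = 0.13, the smallest that 4 samples can give). No sign-flip test below can therefore reach 0.05, and these p-values were not adjusted.

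The 3 chromosomes were not alike. Chromosome 17, which is known to be rich in genes, had 5.15, 5.95, 5.96 and 6.55 peaks per Mb in siControl replicates 1 and 2 and siMETTL3 replicates 1 and 2, and ranked 2 of the 22 autosomes in every sample. Chromosome 20 had 2.89, 3.43, 3.16 and 3.40 peaks per Mb and ranked between 4 and 6. Chromosome 14, whose short arm is made of repeats, had 2.54, 2.78, 2.24 and 2.81 peaks per Mb and ranked between 7 and 11. Against the other autosomes, the density of chromosome 17 was 2.38 times as high and that of chromosome 20 was 1.30 times as high, each in 4 of 4 samples (exact two-sided sign-flip test, p = 0.13 for both). Chromosome 14 had 1.05 times their density, with 1 sample below 1 (exact two-sided sign-flip test, p = 0.375). By full length, the higher density was thus largest on chromosome 17. These lengths include ends without peaks, and on chromosome 14 no peak lay before position 19684125. The ratio of chromosome 14 therefore depends on the length used. Over the length from first to last peak, the mean log2 ratio of the 3 chromosomes together was 0.71, against 0.62 by full length. It was not computed in this way for each chromosome. Chromosome 19 had the highest density, with a mean of 9.49 peaks per Mb.

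**Figure D1:**
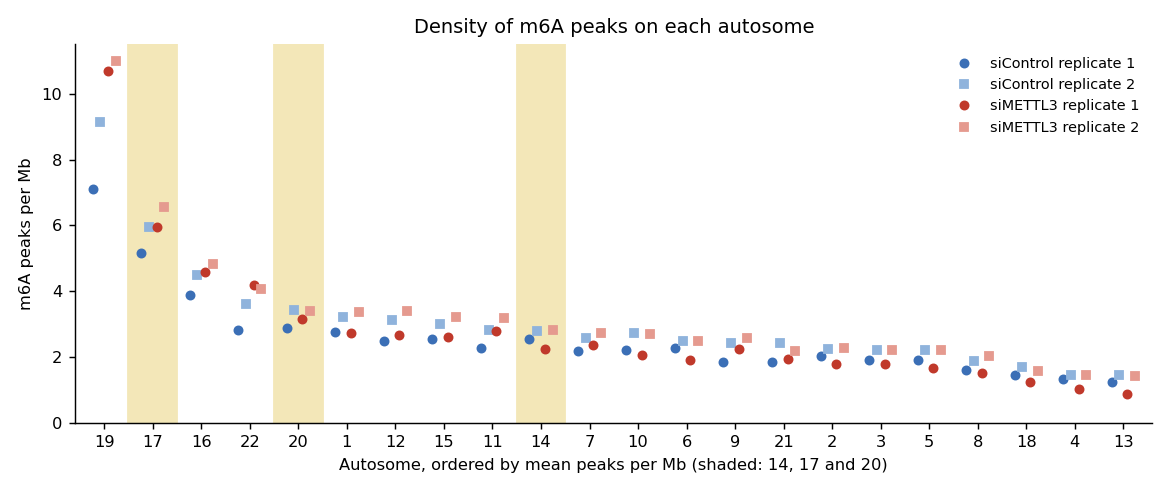
Number of m6A peaks per Mb of chromosome (y axis) for the 22 autosomes (x axis, ordered by their mean), with 1 point per sample and chromosomes 14, 17 and 20 shaded. Chromosome 17 was next to chromosome 19 at the top with 5.15 to 6.55 peaks per Mb, whereas chromosome 14 lay in the middle with 2.24 to 2.81.

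Within the chromosomes the peaks were uneven. In windows of 10 Mb, chromosome 17 had the most peaks between 0 and 10 Mb, with a mean of 86.2 peaks and 128 regions, and between 40 and 50 Mb, with a mean of 81.8 peaks and 131 regions. Its window between 50 and 60 Mb had a mean of 27.2 peaks. On chromosome 14, no region began before 10 Mb and 4 regions began between 40 and 50 Mb, whereas the windows between 70 and 80 Mb and between 90 and 100 Mb held 81 and 83 regions. On chromosome 20, the windows between 30 and 40 Mb and between 40 and 50 Mb held 86 and 84 of its 331 regions.

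The second question was how many tags a peak held. The median peak of the 3 chromosomes had 187 and 195 tags with siControl (replicates 1 and 2) and 219.5 and 156.5 with siMETTL3 (replicates 1 and 2), against 174, 179, 198 and 139 on the other autosomes. This was 1.10 times as many tags (mean log2 ratio 0.14 ± 0.029, SD, n = 4), in 4 of 4 samples (exact two-sided sign-flip test, p = 0.13). Among the 3 chromosomes, the excess was on chromosomes 20 and 17. Chromosome 20 had medians of 223, 231, 247 and 180 tags per peak, 1.28 times those of the other autosomes, and chromosome 17 had 193, 199, 211.5 and 159, 1.11 times (exact two-sided sign-flip test, p = 0.13 for both). Chromosome 14 had 161, 172, 204 and 131, and was below the other autosomes in 3 of the 4 samples (ratio 0.964, exact two-sided sign-flip test, p = 0.25). High medians were not particular to these chromosomes. Among the other autosomes, chromosome 16 had 223, 224, 245.5 and 173.5 tags per peak and chromosome 19 had 219, 208.5, 224 and 169. Both were above chromosome 17 in each sample.

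Chromosome 20 stood at or next to the end of the order of autosomes in tags per kb of peak and in fold enrichment. Per kb of peak its median was 211, 219, 228 and 175 tags in siControl replicates 1 and 2 and siMETTL3 replicates 1 and 2, rank 1 of the 22 autosomes in each sample. Its median fold enrichment was 4.12, 4.23, 4.03 and 4.44, rank 21 in siControl replicate 1 and rank 22 in the other samples. The other autosomes had medians of 4.52, 4.62, 4.38 and 4.87. The ratio was between 0.912 and 0.920 in the 4 samples (exact two-sided sign-flip test, p = 0.13). Chromosome 22 was close to it in siControl, with rank 2 in tags per kb and ranks 22 and 21 in fold enrichment in the 2 replicates, and had more tags per peak than chromosome 20 there, with medians of 269.5 and 236. The tags per kb of each peak divided by its fold enrichment are a rough measure of the background level at the peak. This quotient is built from the 2 measures above, so its ranks are not a separate observation. Chromosome 20 ranked 1 in it in every sample, chromosome 17 between 3 and 6 and chromosome 14 between 7 and 12. Chromosome 17 had a median fold enrichment of 0.981 times and chromosome 14 of 0.992 times that of the other autosomes, and neither was on one side of 1 in all samples (exact two-sided sign-flip test, p = 0.25 for both). Over the 3 chromosomes the ratio was 0.970 and below 1 in 4 of 4 samples (exact two-sided sign-flip test, p = 0.13).

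**Figure D2:**
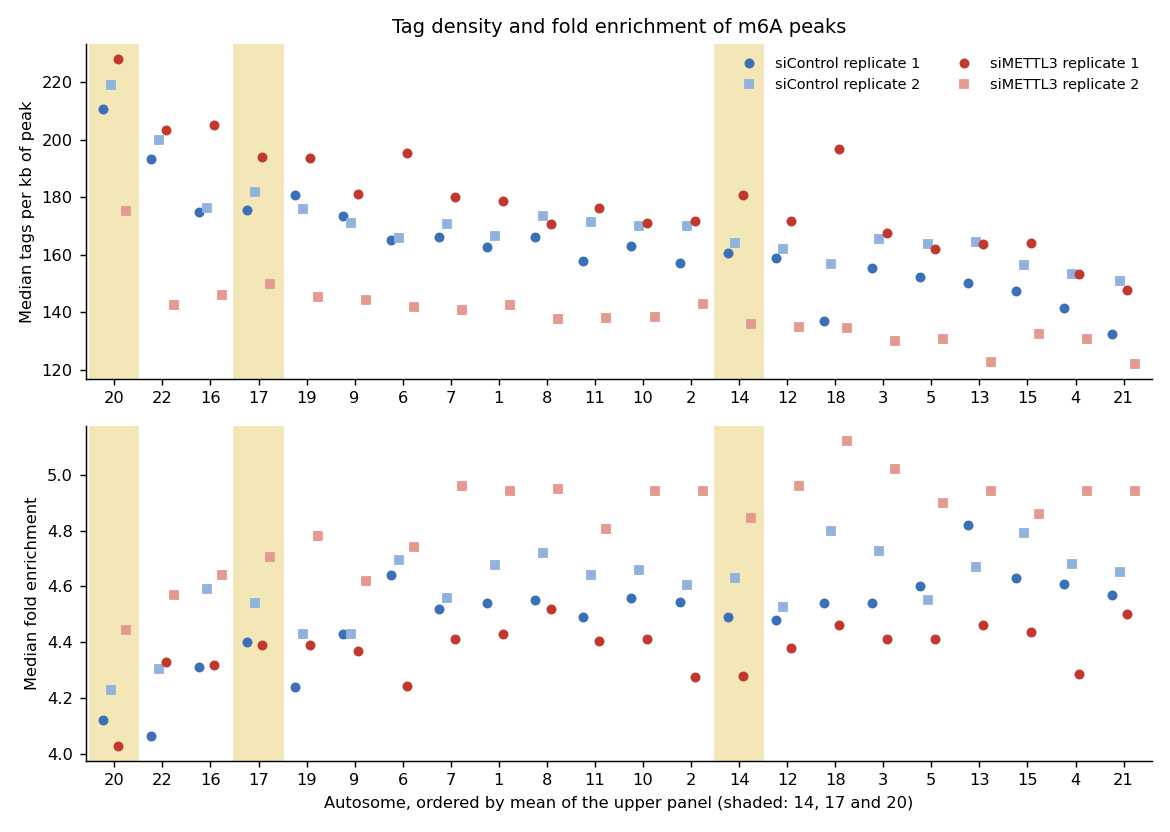
Median tags per kb of peak (upper panel) and median fold enrichment of the peaks (lower panel) on each of the 22 autosomes, ordered by the upper panel, with 1 point per sample and chromosomes 14, 17 and 20 shaded. The y axes do not start at 0. Chromosome 20 had the highest tag density in each of the 4 samples and a median fold enrichment between 4.03 and 4.44.

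The regions richest in tags were broad. On chromosome 17, chr17:17696099-17702021 held 2293 and 2257 tags with siControl and 2807 and 1800 with siMETTL3, with a fold enrichment of 3.70, 4.27, 3.17 and 3.20. It also held the peak with the highest score of the 3 chromosomes, 1886.27 in siControl replicate 1, where the score is 10 times the negative log10 of the p-value. On chromosome 20, chr20:31020534-31027256 held 3617, 3164, 3642 and 2100 tags, and on chromosome 14, chr14:19684125-19687692 held 2885, 2936, 2914 and 2021. Their fold enrichment was between 2.44 and 3.22 and between 2.42 and 2.55, so the largest tag counts went with a fold enrichment below the median of their chromosome.

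The most enriched regions were shorter than the tag-richest one of their chromosome. On chromosome 17 the highest mean log2 fold enrichment of a region called in all 4 samples was at chr17:40427765-40428863, with a fold enrichment of 7.30 and 8.64 with siControl and 10.16 and 15.71 with siMETTL3. Both siMETTL3 values were higher there, but the difference did not pass the test (log2 difference 0.67 ± 0.24 SE, limma adjusted p = 0.464). It was followed by chr17:81051856-81052963, with 8.78, 8.21, 9.37 and 9.69, and chr17:60554162-60556846, with 8.17, 10.65, 10.77 and 6.75.

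On chromosome 14 the leading region was chr14:55004492-55005439, with a fold enrichment of 12.5, 8.75, 7.42 and 10.49 in siControl replicates 1 and 2 and siMETTL3 replicates 1 and 2. Next came chr14:81646018-81646873, with 11.16, 10.84, 6.69 and 7.59, where both siMETTL3 values lay below both siControl values (log2 difference −0.63 ± 0.17 SE, limma adjusted p = 0.404). At chr14:94511838-94514292 it was 6.96, 7.37, 8.05 and 9.04. On chromosome 20 the leading regions were chr20:40161539-40162503, with 6.83, 11.19, 7.23 and 9.60, then chr20:13279445-13280985, with 7.52, 9.18, 6.86 and 6.72, and chr20:61509442-61513964, with 7.19, 6.30, 7.89 and 8.79. The replicates of a group differed at chr20:40161539-40162503 by more than the groups did.

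The third question was how far the samples shared these regions. Of the 1529 regions, 484 (31.7%) had a peak in all 4 samples, 267 (17.5%) in 3, 304 (19.9%) in 2 and 474 (31.0%) in a single sample. Over the whole genome the share in all 4 samples was 31.7%, and it was 31.8% on the other autosomes. The share was 31.4% on chromosome 14, 32.8% on chromosome 17 and 29.3% on chromosome 20, which ranked 16, 9 and 19 of the 22 autosomes. The 484 regions had a median lowest score of 107.51, and the regions called in a single sample had a median score of 64.87 against a minimum of about 50 in the lists. Of the single-sample regions, 166 were from siMETTL3 replicate 2, 123 from siMETTL3 replicate 1, 97 from siControl replicate 1 and 88 from siControl replicate 2.

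The Jaccard index, the bases in the peaks of both samples over the bases in either, on the 3 chromosomes was 0.611 for the pair of siControl samples, 0.559 for the pair of siMETTL3 samples and 0.472 to 0.555 for pairs of different groups. On the other autosomes the values were 0.616, 0.555 and 0.489 to 0.573. Across the 484 shared regions, log2 fold enrichment correlated with a Pearson's r of 0.800 for the siControl pair, 0.783 for the siMETTL3 pair and 0.710 to 0.759 for pairs of different groups. Over 3300 regions of the other autosomes r was 0.788, 0.740 and 0.620 to 0.715. For pairs of different groups it was 0.591 to 0.723 on chromosome 14, 0.719 to 0.740 on chromosome 17 and 0.815 to 0.856 on chromosome 20. These values are descriptions with no test, since regions are not independent replicates.

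The fourth question was what knockdown of METTL3 changed. The 3 chromosomes had 51 more peaks with siMETTL3 than with siControl in replicate 1 and also in replicate 2. The log2 density ratio to the other autosomes was 0.61 ± 0.041 in siControl and 0.63 ± 0.065 in siMETTL3 (SD, n = 2 each), a difference of 0.018 within the replicate spread (exact two-sided permutation test, p = 0.667; 2 samples against 2 can give no p below 0.333). The log2 ratio of tags per peak was 0.11 ± 0.014 in siControl and 0.16 ± 0.016 in siMETTL3, and both siMETTL3 samples were above both siControl samples (exact two-sided permutation test, p = 0.333). On chromosomes 17 and 20 taken singly the difference of this ratio had the opposite sign, −0.0066 and −0.017.

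The values differed between the chromosomes. On chromosome 17, siMETTL3 had 1.16 and 1.10 times as many peaks as siControl in replicates 1 and 2. On chromosome 20 the ratios were 1.09 and 0.991, and on chromosome 14 they were 0.883 and 1.01. In log2 density relative to the other autosomes, siMETTL3 minus siControl was 0.12 on chromosome 17 and −0.14 on chromosome 14 (exact two-sided permutation test, p = 0.333 for both), and −0.0013 on chromosome 20 (exact two-sided permutation test, p = 1.0). Over the 22 autosomes, Spearman's rho between mean peaks per Mb and the ratio of peaks in siMETTL3 over siControl was 0.792, and 0.761 without chromosome 19. These are descriptions over chromosomes of the same 4 samples, and the peak numbers enter both measures. Chromosomes 17, 20 and 14 ranked 2, 5 and 10 in density and 5, 10 and 16 in this ratio, the same order on both.

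**Figure D3:**
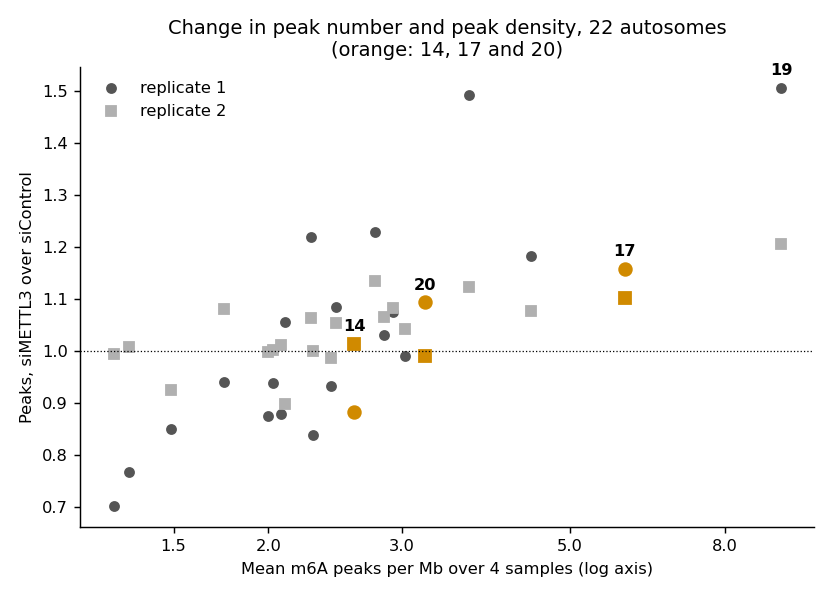
Number of peaks in siMETTL3 over that in siControl (y axis) against mean peaks per Mb over the 4 samples (x axis, log scale) for the 22 autosomes, with circles for replicate 1 and squares for replicate 2. Chromosomes 14, 17 and 20 are orange, and chromosome 17 lay at 1.16 and 1.10 while chromosome 14 lay at 0.883 and 1.01.

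On the 3 chromosomes 76 regions (4.97%) were called in both siControl samples and in neither siMETTL3 sample, against 5.2% of all regions. The reverse held for 83 regions (5.43%), against 5.25% of all regions. Both shares were near the background. On chromosome 17 the numbers were 29 (3.84%) and 47 (6.22%), on chromosome 14 they were 27 (6.11%) and 17 (3.85%), and on chromosome 20 they were 20 (6.04%) and 19 (5.74%). Such shares were not particular to these chromosomes. Over the 22 autosomes, Spearman's rho with mean peaks per Mb was −0.693 for the share only in siControl and 0.766 for that only in siMETTL3. The window of chromosome 17 between 70 and 80 Mb, singled out after its values were seen, held 135 regions. Of these, 15 were found only in siMETTL3 and 3 only in siControl, where the shares over all regions were 5.25% and 5.2%. Peaks in this window numbered 62 and 72 with siControl and 100 and 82 with siMETTL3. In the window of chromosome 14 between 30 and 40 Mb, singled out in the same way, the siControl replicates had 38 and 35 peaks and the siMETTL3 replicates 15 and 30.

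Among the regions called only in siControl, the highest scores were at chr17:66266830-66267972, with 340.09 and 373.98 and a fold enrichment of 6.68 and 6.19 in the siControl replicates. It was followed by chr17:17347248-17349440, with scores of 327.97 and 346.57, and chr14:105964770-105966059, with 285.22 and 240.41. The latter was tag-rich, with 572 and 580 tags and a fold enrichment of 3.76 and 3.66. Among the regions called only in siMETTL3, the highest scores were at chr14:24876929-24879576, with 296.89 and 337.62, at chr17:41476879-41478478, with 245.75 and 255.46, and at chr17:79667225-79670939, with 280.88 and 216.6. These had a fold enrichment between 2.90 and 3.99 and between 363 and 1466 tags. Both scores were at least 100 in 17 of the 76 regions only in siControl and 12 of the 83 only in siMETTL3. The median lowest score went the other way, with 67.9 and 70.4 in the same order. The scores of such regions over the whole genome were not counted, so these values are descriptions only. A region without a peak may still hold tags, which the lists do not show.

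Fold enrichment was compared in the 484 regions of the 3 chromosomes called in all 4 samples, within a limma fit over 3875 such regions of the genome. The other 1045 regions had no peak in at least 1 sample and could not be tested. Fold enrichment is relative to the background of the same sample, so a fall shared by all regions may not show in it. The paper states that a fall in m6A after the knockdown was not checked. Of the 484 regions, 0 reached a Benjamini-Hochberg adjusted p of 0.05 in limma (background 0%), where 0.373 was the lowest value. Without adjustment, 30 regions had a p under 0.05 (6.20%, against 9.6% of all regions tested), of which 14 were higher (background 4.65%) and 16 lower (background 4.95%) in siMETTL3. The median log2 difference was −0.0042 over the 484 regions and 0.0091 over all 3875. It was −0.023 on chromosome 14, 0.012 on chromosome 17 and −0.012 on chromosome 20. Taken as 1 value per sample, the median of these regions minus that of the other autosomes was −0.033 and −0.052 in siControl and −0.022 and −0.077 in siMETTL3 (difference −0.0074, exact two-sided permutation test, p = 1.0).

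The fitted fold enrichment was lowest relative to siControl at chr14:35269280-35269783, with 9.94 and 12.22 in siControl against 5.39 and 4.27 in siMETTL3 (log2 difference −1.20 ± 0.20 SE, limma adjusted p = 0.373). The groups did not overlap there. A neighboring region, chr14:35252176-35252637, had 8.84 and 4.94 against 3.36 and 4.58, and at chr17:36700772-36701886 it was 7.47 and 11.77 against 4.68 and 6.82. The highest differences in the other direction were at chr14:75935844-75937312, with 3.40 and 3.60 against 5.43 and 6.41, at chr14:105281492-105282584, with 3.93 and 5.03 against 8.37 and 6.71, and at chr17:80377483-80378795, with 6.22 and 3.43 against 7.60 and 7.95. The limma adjusted p of these other regions was between 0.394 and 0.491, so none of them passed the test. At chr14:75935844-75937312 tags fell, from 997 and 1027 to 667 and 470 (limma adjusted p = 0.0348), and at chr17:36700772-36701886 they fell from 112 and 159 to 69 and 73 (limma adjusted p = 0.0379).

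Tags changed in some of the same regions. After log2 tags were centred on each sample's median over the 3875 regions, 49 of the 484 regions (10.1%) passed an adjusted p of 0.05 in limma, against 9.24% of all regions tested, and the share on the 3 chromosomes was thus near the background. Of the 49, 26 were higher (background 4.72%) and 23 lower (background 4.52%) in siMETTL3. They were 13 of 139 regions on chromosome 14, 28 of 248 on chromosome 17 and 8 of 97 on chromosome 20. Among the 49, the falls were the larger changes, with a median log2 difference of −0.88 and 9 regions lower by at least 1. The rises had a median of 0.68 and 4 regions higher by at least 1. The sizes were not compared with those of the regions called elsewhere in the genome, so they are not a trait of these chromosomes. Scaled to the tags in all peaks in place of the median, which moved the median of all regions from 0.022 to −0.099, 47 regions were called (9.71%, against 10.2% of all regions), of which 36 were among the 49. They were 13 higher and 34 lower, and over all 3875 regions 118 were higher and 278 lower.

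The fold enrichment of these 49 regions differed in both directions. It was higher in siMETTL3 in 13 of the 26 regions with more tags and lower in 13, with a median log2 difference of −0.0092. Of the 23 regions with fewer tags, it was higher in 14 and lower in 9, with a median of 0.081. At an unadjusted p under 0.05 in limma, 3 of the 49 differed in fold enrichment, where 6.20% of the 484 regions and 9.6% of all regions tested did. Less RNA of a transcript and fewer methylated molecules of it cannot be told apart from the tags alone, and the input libraries enter only through the peak calling.

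**Figure D4:**
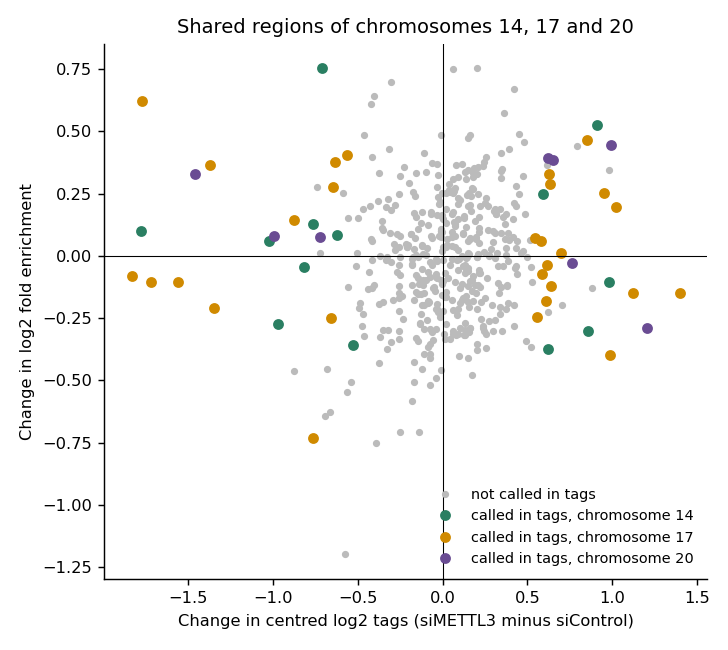
Change in log2 fold enrichment (y axis) against change in centred log2 tags (x axis), siMETTL3 minus siControl, for the 484 regions of chromosomes 14, 17 and 20 called in all 4 samples. The 49 regions called in tags are colored by chromosome, and they lie on both sides of 0 in fold enrichment.

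Among the 49 regions that passed the limma test, those with the largest changes in tags were named after their values were seen. Passing the test was thus the rule of entry, and the adjusted p-values below are descriptions. The largest fall was at chr17:80319633-80321850, from 549 and 507 tags in the siControl replicates to 148 and 121 in the siMETTL3 replicates (log2 difference −1.83 ± 0.15 SE, limma adjusted p = 0.00213), while fold enrichment was 5.75, 5.71, 5.75 and 5.11. At chr14:24784591-24786529 tags fell from 355 and 364 to 107 and 84 (−1.78 ± 0.13 SE, limma adjusted p = 0.00213). At chr17:17397695-17400064 they fell from 788 and 648 to 260 and 137 (−1.78 ± 0.26 SE, limma adjusted p = 0.0128), and fold enrichment was 3.85 and 4.10 in siControl against 7.02 and 5.32 in siMETTL3. Further falls were at chr17:77964874-77966359, from 184 and 219 to 54 and 56, at chr17:66372664-66375051, from 285 and 253 to 93 and 73, and at chr20:49366058-49367662, from 341 and 438 to 108 and 149.

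The largest rise among the 49 was at chr17:38642126-38643919, from 132 and 103 tags to 335 and 231 (log2 difference 1.4 ± 0.21 SE, limma adjusted p = 0.0136). At chr20:13279445-13280985, which was among the most enriched regions of chromosome 20, tags rose from 119 and 145 to 311 and 241 (1.20 ± 0.13 SE, limma adjusted p = 0.00524), while fold enrichment was 7.52 and 9.18 against 6.86 and 6.72. Rises followed at chr17:42881427-42883238, from 139 and 204 to 361 and 306, at chr17:79092874-79096953, from 474 and 548 to 1157 and 762, at chr20:62729833-62731837, from 72 and 87 to 125 and 162, and at chr17:1906207-1907994, from 133 and 196 to 306 and 275. For comparison, the median tags over the 3875 shared regions were 227 and 258 in siControl and 235 and 204 in siMETTL3.

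**Figure D5:**
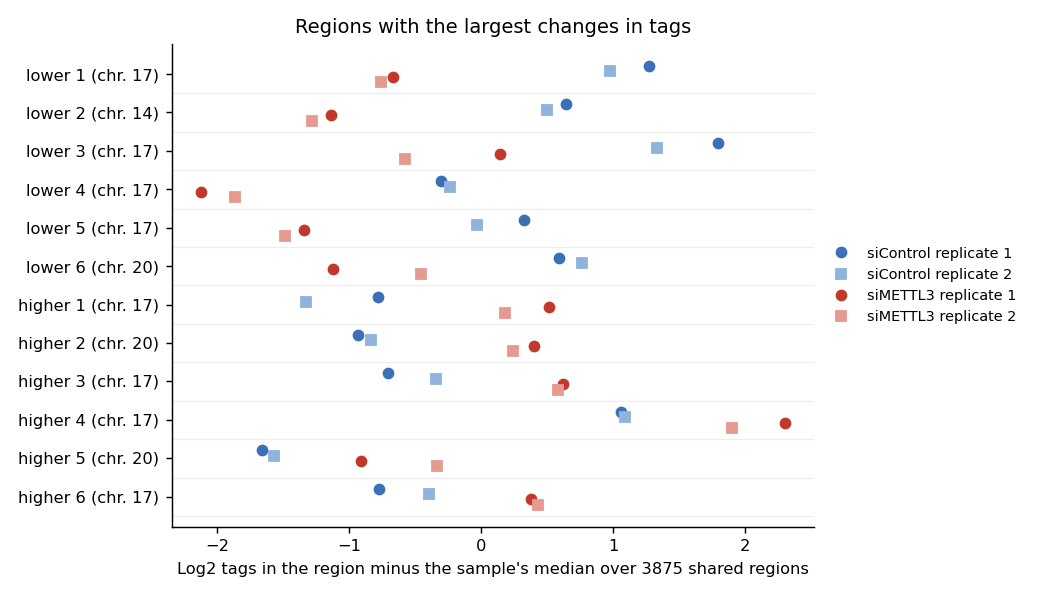
Log2 tags minus the sample's median over 3875 shared regions (x axis), with 1 point per sample. Shown are the 6 regions with the largest falls and the 6 with the largest rises among the 49 that passed the limma test (y axis, in the order of the text). In all 49, both siMETTL3 samples lie on the same side of both siControl samples. The choice by that test favors this separation, so it is no further support.

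Some of the 49 regions lay close together. In 9 cases 2 neighboring ones were under 200 kb apart, and in 6 of these they changed in the same direction. How often regions of the whole genome lie this close or change in the same direction was not counted. These cases are therefore descriptions only. On chromosome 17, chr17:79003746-79007396 and chr17:79092874-79096953 both rose, as did chr17:18166662-18169432 and chr17:18217754-18221767, and chr17:80251014-80252337 fell beside the region with the largest fall. On chromosome 14, chr14:102900422-102901713 and chr14:102964043-102966465 both rose, and chr14:55034047-55035190 and chr14:55168640-55169681 both fell. Opposite changes stood side by side at chr17:62079475-62081640, which rose by 0.62, and chr17:62120005-62121781, which fell by 0.88 on the log2 scale. They also did at chr14:75375948-75377129 (−0.82) and chr14:75537146-75538535 (0.91). The same held for chr17:27869432-27870510 (−0.63) and chr17:27957422-27960134 (0.95).

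The number of 49 regions depended on the libraries. It was 21 without siControl replicate 1, 27 without siControl replicate 2, 48 without siMETTL3 replicate 1 and 105 without siMETTL3 replicate 2. The share of all 3875 regions called moved with it, to 4.7%, 5.42%, 9.73% and 23.1% in the same order. Peaks also differed in extent between samples, and the bases covered in siMETTL3 over siControl had a median log2 ratio of 0.24 in the 26 regions that rose, −0.25 in the 23 that fell and −0.025 in all 484. Per kb of peak, 26 regions were called in limma (5.37%, against 6.01% of all regions), of which 21 were among the 49.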

How the data were processed

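m6A-seq peak lists of 4 immunoprecipitated HepG2 samples were used. The submitters' processing notes name CASAVA 1.8.2, MACS 1.4.2 and the build hg19. The authors called peaks in each sample separately and deposited for each peak the tags as a whole-number count over its own interval, a score (10 times the negative log10 of the p-value), a fold enrichment that is a linear ratio, and an FDR in percent. Depth is unknown, so no counting interval is given.

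Groups came from the sample titles. Chromosome lengths of hg19 came from GenomeInfoDb 1.38.1. Single values were compared with exact permutation or sign-flip tests over samples. log2 fold enrichment (highest peak of a sample in a region, from the deposited ratio, no pseudocount) and median-centred log2 tags were fitted with limma 3.58.1 (lmFit, eBayes, Benjamini-Hochberg over all 3875 regions). Tags belong to different intervals in each sample, so no count model was the main test, and edgeR 4.0.16 was an alternative. The fits were tested on simulated data. The regions named were the 3 most enriched and the 1 with most tags per chromosome, the 3 highest and 3 lowest differences in fold enrichment, and the 3 regions of each group alone with the highest lowest score. The 3 chromosomes and these rules were chosen with earlier results of these data known. No sequence or gene is given, because no genome or annotation of hg19 was used here, and the gene lists planned were not counted for the same reason. The sign-flip and permutation tests used Python 3.11.15, numpy 2.4.6 and pandas 2.3.3, the fits R 4.3.3, and the figures matplotlib 3.10.9.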

Additional observations from a re-analysis of the deposited data

How the results depend on the processing

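The density ratio and the ratio of fold enrichment kept their direction under every alternative run, with mean log2 ratios between 0.064 and 1.25 and between −0.13 and −0.011, the ends nearest 0 being chromosome 14 alone. The ratio of tags per peak reversed to −0.053 on chromosome 14 alone and was otherwise above 0. The difference in density ratio (0.018) reversed to −0.0010 without chromosomes 2, 6 and 16, to −0.14 and −0.0013 on chromosomes 14 and 20 alone, and ranged from −0.028 to 0.064 with 1 replicate left out. The difference in tags per peak ratio (0.046) reversed to −0.0066 and −0.017 on chromosomes 17 and 20 alone, and ranged from 0.035 to 0.057 with 1 replicate left out. The difference in sharing (−0.16 percentage points) reversed to 0.39 at a score of at least 70, to 0.98 on chromosome 17 alone and to 0.13 where peaks had to cover 50% of a region. Regions only in siControl moved to 6.11% on chromosome 14 and 3.84% on chromosome 17, and those only in siMETTL3 to 3.85% on chromosome 14. The difference in median log2 enrichment (−0.0074) reversed to 0.0030 at a score of at least 70, to 0.040 at an FDR of at most 50% and to 0.0020 on chromosome 20 alone, and ranged from −0.035 to 0.020 with 1 replicate left out. The difference in median tags (0.035) reversed to −0.020 on chromosome 14 alone. It ranged from 0.0075 to 0.063 with 1 replicate left out. The causes were not tested. The limma fit of enrichment called 0 regions of the 3 chromosomes under all alternatives run, of 367 tested at a score of at least 70 and of 484 otherwise.

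Of the regions called in tags, the number moved from 49 to 26 per kb of peak (5.37%, against 6.01% of all regions), from 49 to 106 with the replicate block (21.9%, against 22.8%), and to between 21 and 105 with 1 replicate left out (against 4.7% to 23.1% of all regions). A group then holds a single sample, assumed to vary like the other group. edgeR, chosen like the values per kb and the comparison without chromosome 19 after seeing the data, called 49 (and 391 of all 3875), of which 42 were among the limma calls. The replicate block left the differences of single values at 0.018, 0.046, −0.0074 and 0.035 in the order above. The sample titles give only a replicate number. In log2 fold enrichment, deviations of same-numbered samples correlated with r = 0.011 over the 3875 regions. Whether they deviate together in tags, where the replicate block called more regions, was not tested. The unknown depth limits every comparison of tags and peaks.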
